A study of Homo sapiens with 19 samples.

Results

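501Mel is a human melanoma cell line, and Hermes 3A is an immortalised line of human melanocytes, the pigment cells from which melanoma arises. Their scramble controls were compared here: 3 libraries labelled shSCR1 from 501Mel against 3 libraries labelled shSCR from Hermes 3A, chosen by label, 6 of the 19 libraries in the series. The study used these cells as the controls of its shRNA silencing of MITF and of the chromatin remodeller BRG1, so both lines had been infected with a lentivirus carrying a scramble hairpin. 501Mel cells grew in RPMI with fetal calf serum, whereas the medium of Hermes 3A also held the phorbol ester TPA, cholera toxin, stem cell factor and endothelin-1. Each cell type is therefore represented by 1 line, and line, medium and library preparation cannot be told apart. The labels do not say that replicates came from separate cultures, so the p-values measure only the spread between these libraries, which may be technical.

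Melanocytes arise from the neural crest and make melanin in melanosomes. MITF, with SOX10 and PAX3 upstream of it, drives the genes of the pigment enzymes, and KIT, the endothelin receptor and the melanocortin receptor feed growth and cyclic AMP signals into the same network. Melanoma cells often keep this lineage programme while changing the brakes on the cell cycle, adhesion, matrix and immune recognition.

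Gene levels below are in CPM (read counts scaled to a fixed library total by the TMM method). Every difference is 501Mel minus Hermes 3A on a log2 scale. The ± after a difference is an approximate standard error (SE), worked back from the result of the test and not taken from the fit. It is left out for CDKN1A, CXCL1, COL4A1 and HOXC10, whose few counts in 501Mel make it too small. A gene was called when the adjusted p of edgeR's quasi-likelihood test was under 0.05 and the log2 difference exceeded 1 in size. The 6 libraries held 32941771 to 51442426 counts, and replicates varied little, with a biological coefficient of variation of 4.60% in 501Mel and 5.55% in Hermes 3A. Mitochondrially encoded mRNA took 5.50 to 6.16% of counts in 501Mel shSCR1 and 2.52 to 2.70% in Hermes 3A. The shSCR1 libraries detected more genes, 28419 to 29711 against 23758 to 26904. Another 501Mel scramble group, 2 libraries labelled shSCR2, is set beside results where it changes a call. It was compared with the same Hermes 3A libraries, so the values are not independent of the first comparison. The shSCR2 libraries had mitochondrial shares of 4.32 and 3.81%. They detected 26287 and 29561 genes, out of the 39165 that were listed for shSCR2 too.

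Of 18731 genes tested, 4333 were called higher in 501Mel (23.1%) and 3414 lower (18.2%), and the groups did not overlap for 82.8% of genes. These shares are the background against which each gene group is read. The higher calls leaned on weakly expressed genes: 52.2% of them had a mean under 100 counts in 501Mel, against 26.6% of the lower calls in Hermes 3A. Among the 13232 genes with at least 100 counts, the order turned, with 2071 higher and 2506 lower, and the same held for the 14212 protein-coding genes, with 2415 higher and 2873 lower. Higher calls made up 55.9% of all calls with TMM scaling and 66.0% with plain library sizes, which moved the differences up by a median of 0.26 (5310 higher, 2730 lower). Against shSCR2, 20.7% of genes were higher and 22.9% lower.

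**Figure D1:**
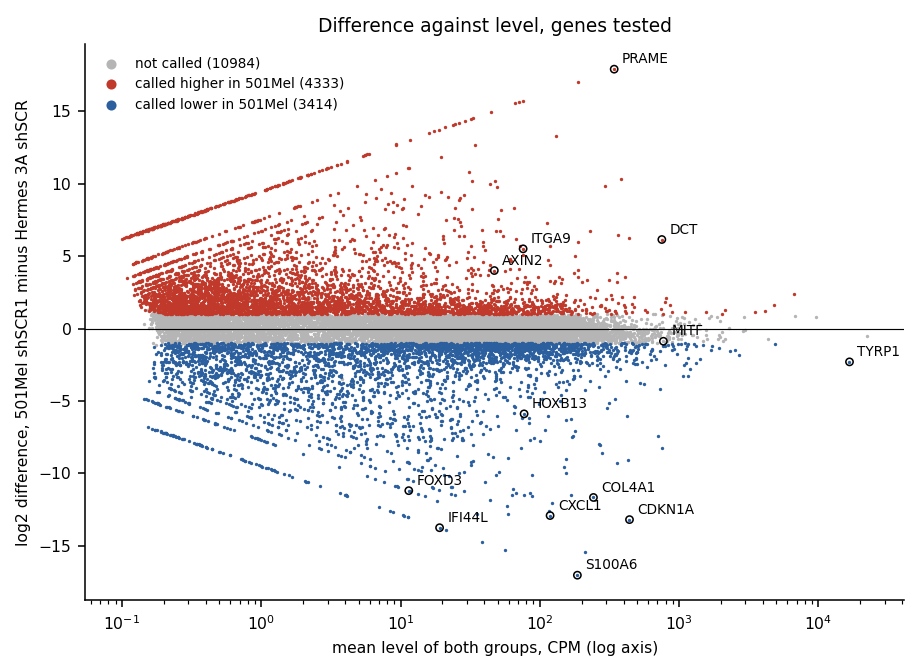
Each point is 1 of 18731 genes tested, by its mean CPM over both groups (log axis) and its log2 difference, 501Mel minus Hermes 3A; red genes were called higher, blue genes lower, and named genes are circled. PRAME and S100A6 lie at the far ends, the straight bands hold genes at or near 0 counts in 1 group, and TYRP1 is lower in 501Mel at the highest level of the named genes.

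Most of the melanocyte transcription factors were within the fold threshold between the lines. Of 19 tested, 2 were called higher (10.5%, background 23.1%) and 5 lower (26.3%, background 18.2%). Their median was -0.40 beside 0.04 for all genes. With shSCR2 4 were higher and 5 lower. MITF, the master regulator of the lineage (chr3:69739435-69968337, GRCh38), read 488, 569 and 575 CPM in the 501Mel libraries and 955, 988 and 1057 in Hermes 3A. Every 501Mel library was below every Hermes 3A library, but the difference of -0.88 ± 0.06 (SE, adjusted p = 3.9e-13) did not reach the fold threshold, and with shSCR2 it was 0.07. SOX10, which activates MITF, averaged 452 ± 14.5 CPM (SD, n = 3) in 501Mel and 631 ± 43.7 in Hermes 3A, a difference of -0.48. PAX3, another activator of MITF, differed by -0.68 and was not called, but was called lower when shSCR2 took the place of shSCR1 (-1.13).

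The called factors differed by much more. FOXD3, a neural crest factor, had 1, 0 and 0 counts in 501Mel, and its level in Hermes 3A was 23.5, 24.5 and 20.7 CPM (adjusted p = 1.2e-22). TBX2, a repressor of cyclin-dependent kinase inhibitors, was lower by a log2 difference of -3.16 (25.6 ± 1.31 against 230 ± 15.5 CPM). IRF4, a pigmentation factor that acts with MITF, had -2.05, and SNAI2, a neural crest factor needed by melanoblasts, had -2.11 (-0.39 and not called with shSCR2); both were named after their values were seen. In the other direction, TFEB, a relative of MITF that drives lysosomal genes, was 33.4, 34.9 and 31.9 CPM in 501Mel and 1.59, 1.97 and 1.66 in Hermes 3A, a difference of 4.28 ± 0.10 (adjusted p = 2e-22). SOX6, a SOX factor without an activation domain of its own, was 6.79-fold higher.

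The pigment genes split: DCT and SLC45A2 were far higher in 501Mel, whereas TYRP1 and OCA2 were far lower there. Of 19 genes of melanin synthesis and the melanosome, 5 were called higher, 9 lower and 5 were not called (5 higher and 11 lower with shSCR2). The shares were 26.3% higher (background 23.1%) and 47.4% lower (background 18.2%). DCT, the dopachrome tautomerase of eumelanin synthesis (chr13:94436808-94479682, GRCh38), read 1278, 1592 and 1582 CPM in 501Mel and 20.8, 19.6 and 22.2 in Hermes 3A, 71.1-fold higher (6.15 ± 0.08, adjusted p = 1.1e-24). SLC45A2, a melanosome transporter that sets luminal pH (chr5:33944616-33984730), read 802, 891 and 879 CPM against 11.8, 10.4 and 10.7, a 77.9-fold difference (6.28 ± 0.07, adjusted p = 7.4e-29). The lowest 501Mel library was far above the highest Hermes 3A library for both genes, and shSCR2 gave 5.88 and 6.39.

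TYRP1, the other tyrosinase-related enzyme (chr9:12685439-12710290), went the other way, at 5318, 5824 and 5799 CPM in 501Mel and 27370, 27290 and 28880 in Hermes 3A (-2.30 ± 0.05, adjusted p = 1.6e-22). OCA2, an anion channel of the melanosome, was 13.5-fold lower (72.5 ± 4.59 against 981 ± 12.1 CPM). MLANA, a melanosome biogenesis protein used to diagnose melanoma, was 2.51-fold lower, and CITED1, a transcriptional coactivator, 9.33-fold lower. TYR, the rate-limiting enzyme of melanin synthesis, had -0.71 and PMEL, the amyloid of the melanosome fibrils, -0.51, neither called; with shSCR2 they had -1.79 and -1.59 and both were called lower. All 8 markers of the lineage that were examined (MITF, SOX10, PAX3, TYR, TYRP1, DCT, PMEL and MLANA) were expressed in both lines.

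**Figure D2:**
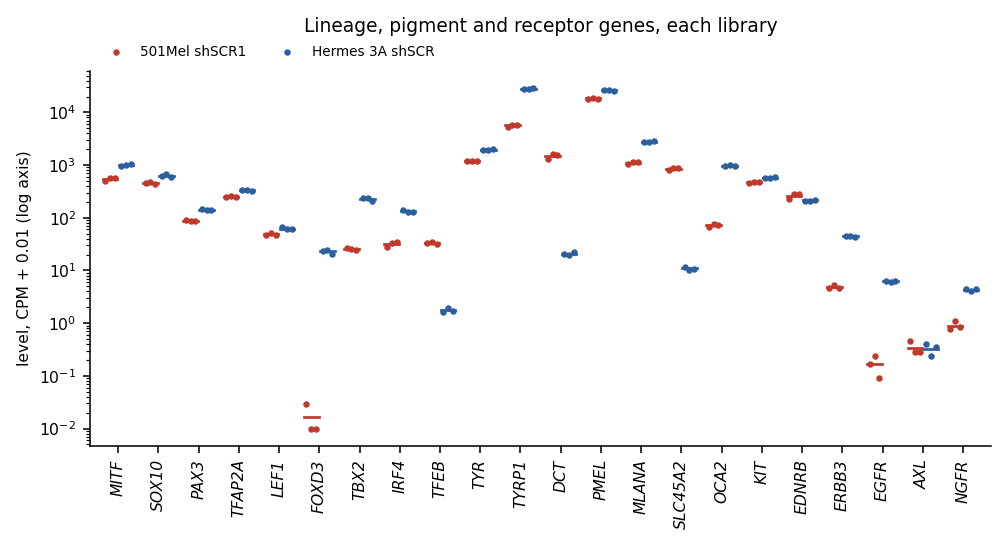
CPM on a log axis (a small constant added) of lineage factors, pigment genes and receptors, with 1 point for each library and a bar at the mean of 3, 501Mel shSCR1 in red and Hermes 3A shSCR in blue. MITF, SOX10 and KIT lie within the fold threshold, while DCT, SLC45A2 and TFEB are far higher in 501Mel and FOXD3, OCA2 and EGFR far lower.

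The promoters of TYR and TYRP1 are shown because both genes are classical targets of MITF, which binds the M-box, an extended E-box. The 250 bases before the RefSeq start are printed (GRCh38.p14), with the letters TCATGTG, searched on both strands, in capitals. Of 15 matched promoters of the pigment list, 5 held them (33.3%), against 2.58% of 27305 promoters; the letters CACGTG, the plain E-box, were in 1 of 15 (6.67%) and in 6.49%.
TYR, chr11:89177625-89177874, plus strand: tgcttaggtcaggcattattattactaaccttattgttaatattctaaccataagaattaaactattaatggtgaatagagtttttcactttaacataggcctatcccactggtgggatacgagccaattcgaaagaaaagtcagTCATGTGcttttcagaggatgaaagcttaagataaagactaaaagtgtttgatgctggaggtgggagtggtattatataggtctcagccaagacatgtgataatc
TYRP1, chr9:12693135-12693384, plus strand: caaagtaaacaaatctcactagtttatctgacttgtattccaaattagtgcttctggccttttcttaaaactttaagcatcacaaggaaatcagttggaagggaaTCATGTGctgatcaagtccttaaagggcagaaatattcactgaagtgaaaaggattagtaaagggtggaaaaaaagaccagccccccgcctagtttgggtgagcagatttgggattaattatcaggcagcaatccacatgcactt
Both promoters held 1 match, 98 and 138 bases before the start. Their transcripts were both below the Hermes 3A level in 501Mel, by -0.71 and -2.30; a match is a description of the sequence and does not show binding.

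Of 26 genes that build and move melanosomes, 18 were not called, 1 was called higher and 7 lower, with a median of -0.50 (-0.16 with shSCR2). The shares were 3.85% higher (background 23.1%) and 26.9% lower (background 18.2%). MYO5A, the motor that carries melanosomes along actin, averaged 226 ± 17.6 CPM in 501Mel and 1023 ± 28.8 in Hermes 3A (-2.18 ± 0.05). HPS1, a subunit of the BLOC-3 complex of melanosome biogenesis, was 7.47-fold lower, whereas HPS4, its partner in that complex, was 2.08-fold higher, a call not made with shSCR2 (0.69).

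The SWI/SNF subunits and CHD7, the remodellers at the centre of the study, were mostly within the fold threshold. Of 28 tested, 24 were not called, 2 were higher and 2 lower (7.14% each, background 23.1% and 18.2%). With shSCR2 5 were higher and 2 lower. SMARCA4, which encodes BRG1, read 169, 182 and 175 CPM in 501Mel and 230, 244 and 215 in Hermes 3A (-0.38 ± 0.05), and its sign turned with shSCR2 (0.42). SMARCA2, which encodes BRM, the alternative ATPase, had -0.84 ± 0.05 and CHD7, a chromodomain remodeller, 0.88 ± 0.05 (called higher with shSCR2, 1.12, and with library sizes, 1.14). SS18L1, a neuronal subunit, was 9.01-fold higher in 501Mel, while its paralogue SS18 was 2.22-fold lower, the latter not called with shSCR2 (-0.42).

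Receptors and ligands of melanocyte growth were called lower more often than higher, 9 against 4 of 21. The shares were 42.9% lower (background 18.2%) and 19% higher (background 23.1%). With shSCR2 7 of 20 were lower and 3 higher. KIT, the stem cell factor receptor, and EDNRB, the endothelin receptor, differed by -0.28 and 0.29 and were not called; with shSCR2 KIT had -1.16 and was called lower. EGFR, ERBB2 and ERBB3, 3 members of the epidermal growth factor receptor family, were 36.8-, 12.2- and 9.14-fold lower in 501Mel. ERBB2 was named after its value was seen. ERBB3 rested on which scramble group stood for 501Mel: it read 4.58, 5.30 and 4.65 CPM with shSCR1, and 75.5 and 30.0 CPM in the shSCR2 libraries, so that the difference was -3.19 with the former and 0.21 with the latter. IGF1R, the receptor of insulin-like growth factors, was 4.44-fold higher and MERTK, a receptor that takes up apoptotic cells, 2.95-fold higher. AXL, a marker of the invasive melanoma state, was at 0.33 ± 0.10 CPM in 501Mel and 0.32 ± 0.08 in Hermes 3A, near the detection limit in both, and its difference of 0.04 turned negative without 501Mel replicate 1 (-0.25) or Hermes 3A replicate 2 (-0.14).

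Downstream of the receptors, the MAPK list had 7 higher (35%, background 23.1%) and 5 lower (25%, background 18.2%) of 20. This balance turned with shSCR2 (3 higher, 7 lower). DUSP6, a phosphatase that feeds back on ERK, had -0.75 and SPRY4 0.74, neither called. CCND1, the G1 cyclin D1, read 1153, 1202 and 1197 CPM in 501Mel and 4240, 4193 and 4064 in Hermes 3A (-1.82 ± 0.05, adjusted p = 2.4e-21), and FOSL1, an AP-1 factor, was 26.2-fold lower. ETV5, an ETS factor, was 2.31-fold higher (0.34 and not called with shSCR2).

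The cyclic AMP and protein kinase A list had 8 genes higher (40%, background 23.1%) and 5 lower (25%, background 18.2%) of 20. With shSCR2 it had 6 of each. PPARGC1A, a coactivator of mitochondrial biogenesis under MITF, was at 130, 149 and 146 CPM in 501Mel and 2.50, 3.12 and 2.78 in Hermes 3A, 50.9-fold higher (5.67 ± 0.08, adjusted p = 2.1e-26). ADCY2, an adenylate cyclase, was 72.9-fold higher, and PRKAR1A, a regulatory subunit of protein kinase A, 7.04-fold lower. Cholera toxin, which raises cyclic AMP, and TPA, which acts on protein kinase C, were in the Hermes 3A medium alone, and their part in these values was not tested. Among 12 protein kinase C genes 2 were higher and 2 lower (16.7% each, background 23.1% and 18.2%). PRKCB was 3.50-fold higher with shSCR1 but had -0.34 with shSCR2.

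WNT feedback genes were higher in 501Mel. Of 12 tested, 9 were called higher (background 23.1%) and 2 lower, with a median of 2.96, and shSCR2 gave the same counts. AXIN2, the scaffold that β-catenin induces to restrain itself, read 84.4, 91.5 and 90.5 CPM in 501Mel and 5.79, 5.18 and 5.54 in Hermes 3A (4.01 ± 0.07, adjusted p = 6.9e-25). APCDD1, a membrane inhibitor of WNT, was 63.3-fold higher (370 ± 2.88 against 5.86 ± 0.19 CPM) and NKD2, an inhibitor of Dishevelled, 145-fold higher. The ubiquitin ligases RNF43 and ZNRF3, which remove Frizzled receptors, had 5.27 and 1.65, values chosen for naming after they were seen. DKK1, a secreted inhibitor, went the other way, at 0.70 ± 0.10 CPM in 501Mel and 86.7 ± 1.99 in Hermes 3A (-6.96), and LEF1, a β-catenin partner, was not called (-0.35).

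**Figure D3:**
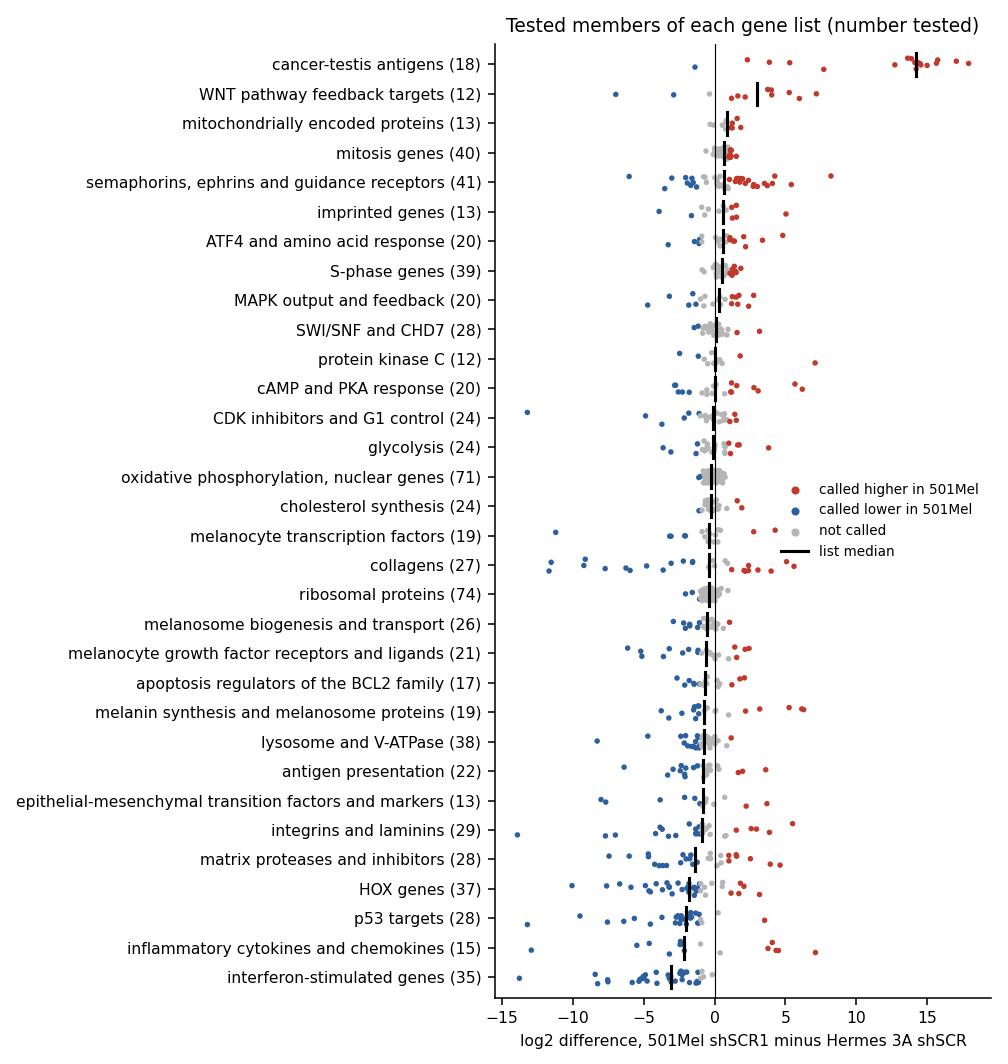
Log2 difference, 501Mel minus Hermes 3A, of each tested member of the gene lists, ordered by list median (black bar), with called genes in red and blue and the number tested in brackets. Cancer-testis antigens and WNT feedback targets lie to the right, interferon-stimulated genes and p53 targets to the left, and ribosomal and nuclear oxidative phosphorylation genes lie close to 0.

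The targets of p53 were nearly all lower in 501Mel. Of 28 genes, 24 were called lower (background 18.2%), 1 higher and 3 were not called, with a median of -2.04; shSCR2 gave 23 lower. CDKN1A, which encodes the CDK inhibitor p21 (chr6:36676460-36687339), had 0.12, 0.04 and 0.14 CPM in 501Mel. In Hermes 3A it had 882, 930 and 832 CPM, so that 501Mel was 9420-fold lower (-13.20, adjusted p = 8e-30). FAS, a death receptor, was 187-fold lower, and SPATA18, a mitochondrial quality control protein, had 0, 1 and 1 counts in 501Mel against 12 ± 1.18 CPM in Hermes 3A. MDM2, the ubiquitin ligase that p53 induces against itself, averaged 19.4 ± 0.99 against 254 ± 11 CPM, and BAX, a pore-forming killer protein, was 4.28-fold lower. GDF15, a stress cytokine that ATF4 also drives, was the single member called higher, 11.6-fold. MDM4, a relative of MDM2 from the G1 list, was 2.70-fold higher. FAS and MDM2 were named after their values were seen.

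Other G1 regulators were mixed, with 3 of 24 higher (12.5%, background 23.1%) and 6 lower (25%, background 18.2%). CDKN2A, which encodes p16 and ARF, had 71.5 ± 1.37 CPM in 501Mel and 106 ± 9.30 in Hermes 3A (-0.57, not called). CDK4, the partner of cyclin D, was 4.40-fold lower. TERT, the catalytic subunit of telomerase, read 21.2, 23.9 and 24.1 CPM in 501Mel and 674, 718 and 619 in Hermes 3A (-4.86 ± 0.07, adjusted p = 6.6e-27). TERT and CDK4 are both used to immortalise melanocytes in culture, and for neither do the counts separate an introduced copy from the endogenous gene. CDKN1C, an imprinted CDK inhibitor, was 2.90-fold higher with shSCR1 and lower with shSCR2 (-2.81).

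Counts of replication and mitosis genes depended on the scramble group. With shSCR1, 11 of 39 S-phase genes and 9 of 40 mitosis genes were called higher, and none of either was called lower. The shares of 28.2% and 22.5% were near the background of 23.1% but above the 17.0% of protein-coding genes. The list medians were 0.50 and 0.67, beside -0.11 for protein-coding genes. With shSCR2 the counts were 30 and 37, beside a background of 20.7%. GINS1, of the replicative helicase, was 3.62-fold higher and PLK1, the mitotic kinase, 2.90-fold higher. MKI67, the proliferation marker, averaged 170 ± 10.1 CPM in 501Mel and 171 ± 8.80 in Hermes 3A (-0.01 ± 0.05, adjusted p = 0.9), and its difference was 1.31 with shSCR2.

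Interferon-stimulated genes were the list furthest below Hermes 3A. Of 35 tested, 31 were called lower (background 18.2%), none higher, and all 35 were below 0 with a median of -3.09; with shSCR2 35 were called lower. IFI44L had 0 counts in every 501Mel library and 39.4, 33.3 and 41.8 CPM in Hermes 3A, at least 1840-fold lower with the floor of 3 counts over the group (adjusted p = 3.3e-22). EPSTI1 had 3, 0 and 0 counts in 501Mel and 8.07 ± 0.36 CPM in Hermes 3A. Of genes named after their values were seen, OAS2, which senses double-stranded RNA, was 183-fold lower (1.85 ± 0.46 against 339 ± 17.9 CPM), ISG15, a ubiquitin-like modifier, 31.7-fold lower and IFI6 9.64-fold lower. STAT2, a signal transducer of interferon, was 2.25-fold lower, whereas IRF1, which interferon gamma strongly induces, was not called (5.00 ± 0.67 against 5.64 ± 0.68 CPM).

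**Figure D4:**
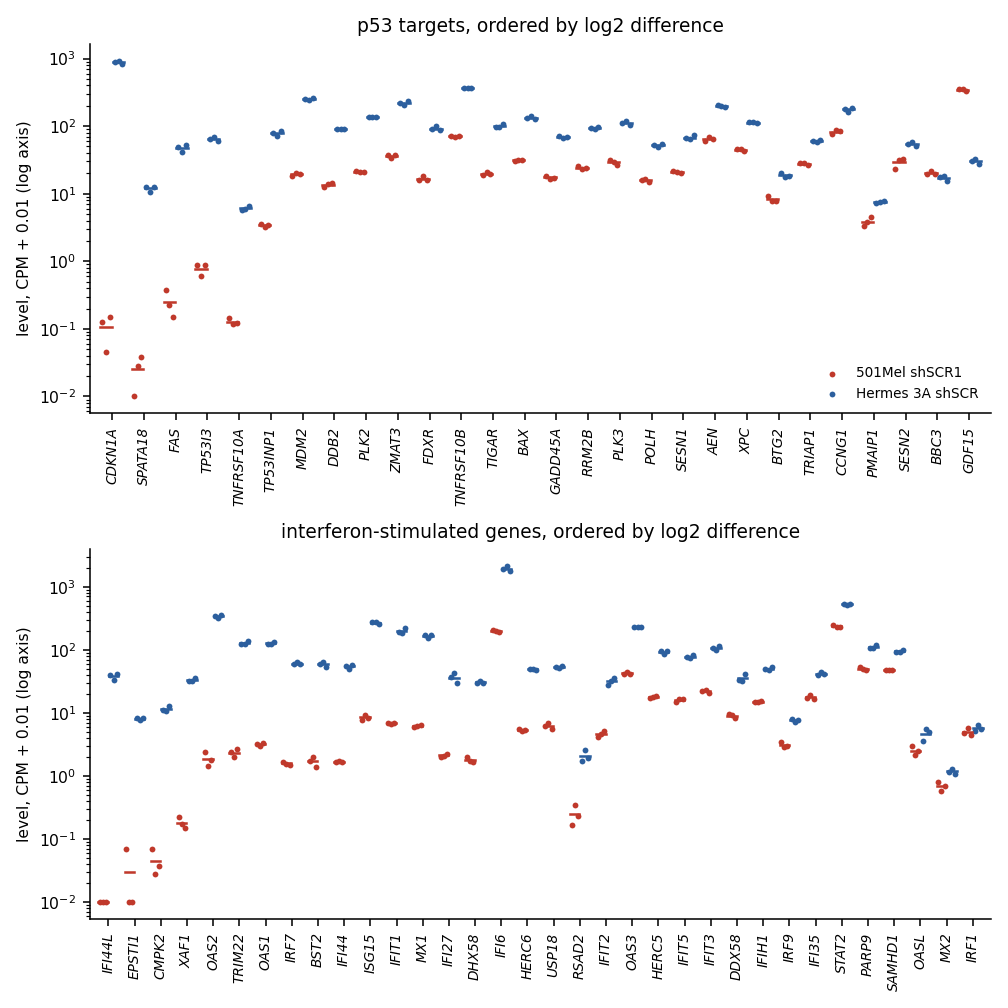
CPM on a log axis (a small constant added) of the 28 tested p53 targets (top) and of interferon-stimulated genes (bottom, a member not reported here left out), ordered by log2 difference, with 1 point for each library and a bar at the mean of 3, 501Mel shSCR1 in red and Hermes 3A shSCR in blue. The red points lie below the blue ones for nearly every gene, by the widest margin for CDKN1A and IFI44L, and GDF15 is the p53 target that lies clearly the other way.

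The promoters of 3 interferon-stimulated genes are shown because most of the list was lower; type I interferon acts on such genes through the interferon-stimulated response element. The capitals mark the letters GAAANNGAAA, searched on both strands, where N is any base and matches may overlap, in the 250 bases before the RefSeq start (GRCh38.p14).
ISG15, chr1:1013247-1013496, plus strand: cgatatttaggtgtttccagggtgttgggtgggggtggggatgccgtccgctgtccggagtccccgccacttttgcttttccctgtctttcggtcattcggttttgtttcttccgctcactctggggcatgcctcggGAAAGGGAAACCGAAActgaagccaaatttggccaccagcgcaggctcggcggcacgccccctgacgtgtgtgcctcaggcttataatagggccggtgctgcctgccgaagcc
IFI6, chr1:27672193-27672442, minus strand: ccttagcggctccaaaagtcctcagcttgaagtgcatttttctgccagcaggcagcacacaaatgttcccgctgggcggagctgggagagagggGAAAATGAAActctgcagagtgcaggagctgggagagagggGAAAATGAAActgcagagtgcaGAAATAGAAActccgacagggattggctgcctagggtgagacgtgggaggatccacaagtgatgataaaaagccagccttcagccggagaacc
IFI44L, chr1:78620198-78620447, plus strand: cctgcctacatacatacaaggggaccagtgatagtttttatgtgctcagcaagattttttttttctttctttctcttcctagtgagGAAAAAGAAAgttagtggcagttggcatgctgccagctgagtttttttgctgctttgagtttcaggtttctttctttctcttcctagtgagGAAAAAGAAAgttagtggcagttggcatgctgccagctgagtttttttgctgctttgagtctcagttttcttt
ISG15 and IFI44L held 2 matches each and IFI6 held 3. Of 25 matched promoters of the list, 13 held at least 1 match (52.0%), against 3.07% of all 27305 promoters and 0 of 15 of the pigment list. These shares describe the promoters alone and use no value of the comparison. A match does not show binding, and its part in the lower levels was not tested.

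Of 22 antigen presentation genes tested, 10 were called lower (45.5%, background 18.2%), 3 higher (13.6%, background 23.1%) and 9 were not called. HLA genes are near-identical copies whose counts are uncertain, but B2M, the invariant light chain, is not, and it read 381, 363 and 365 CPM in 501Mel and 1826, 1895 and 1934 in Hermes 3A (-2.35 ± 0.05, adjusted p = 2.1e-23). TAP1, the peptide transporter, was 4.22-fold lower; both were named after their values were seen. ERAP2, a peptidase that trims antigens, was 9.89-fold lower. With shSCR2 17 of 22 were called lower and 1 higher.

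Cancer-testis antigens, genes normally silent outside the germ line, were the reverse. Of 23 members found in the data, 18 were tested, with 17 called higher (94.4%) and 1 lower. Of those tested, 13 had 0 counts in every Hermes 3A library. These 13 could pass the filter on low counts through 501Mel alone, so they could only be called higher. The share of 94.4% is therefore not comparable with the background of 23.1%. With no filter on low counts, 18 were called higher and 1 lower. The median of the tested members was 14.2 as fitted and 11.1 with the 13 genes at their bound. PRAME, which dampens retinoic acid signals (chr22:22547701-22559361), read 691, 693 and 669 CPM in 501Mel with 0 counts in all 3 Hermes 3A libraries, at least 29400-fold higher (adjusted p = 4.4e-29). MAGEA4 read 376, 377 and 374 CPM in 501Mel and 0 in Hermes 3A, at least 16100-fold higher. The MAGEA family has near-identical members, so that single names are uncertain. SSX1 was the member called lower, 2.60-fold.

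Across protein-coding genes outside the Y chromosome, the largest higher values belonged to this family too: PRAME, MAGEA4, MAGEA12, MAGEB2, IGFN1, MAGEA3, MAGEA6 and MAGEC1. Each had 0 counts in every Hermes 3A library. IGFN1, a muscle protein, stood apart, at 165, 115 and 119 CPM with shSCR1 and only 2.06 and 4.23 CPM with shSCR2. The largest lower values were S100A6, IGFBP7, MSC, THBD, ITGA4, IFI44L, CDKN1A and IGFBP4. S100A6, a calcium-binding protein, had 0 counts in 501Mel and 372, 373 and 373 CPM in Hermes 3A, at least 17800-fold lower (adjusted p = 1.1e-28). MSC, a bHLH repressor, and THBD, the thrombin receptor thrombomodulin, had 0 counts in 501Mel too, at least 5380- and 3700-fold lower. In all, 72 genes had at least 100 mean counts in 501Mel and 0 counts in Hermes 3A, and 30 were the reverse.

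Matrix and adhesion genes were called lower more often than higher. Collagens had 13 lower (48.1%) and 9 higher (33.3%) of 27, both above the background of 18.2% and 23.1%, with a median of -0.41. Integrins and laminins had 14 lower (48.3%) and 5 higher (17.2%) of 29, with a median of -0.885. Matrix proteases and their inhibitors had 15 lower (53.6%) and 7 higher (25%) of 28, with a median of -1.38. With shSCR2 the counts were 16 lower and 7 higher of 27, 17 and 2 of 28, and 18 and 1 of 27. COL4A1, a chain of basement membrane collagen, read 0.21, 0.11 and 0.11 CPM in 501Mel and 494, 505 and 458 in Hermes 3A (-11.67, adjusted p = 1.1e-29). COL11A1, a fibril-forming chain, was 2940-fold lower. ITGA4, of the VCAM1 receptor, had 0 counts in 501Mel and 42.3 ± 0.74 CPM in Hermes 3A, at least 2020-fold lower, and ITGB3, of the vitronectin receptor, was 207-fold lower. TIMP3, an inhibitor of metalloproteases, was 174-fold lower. ITGA9, which pairs with the β1 chain, ran against these, 45.5-fold higher.

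Of 13 genes of the epithelial-mesenchymal transition, 6 were lower (46.2%, background 18.2%) and 2 higher (15.4%, background 23.1%). CDH1, the E-cadherin that ties melanocytes to keratinocytes, read 2.81, 2.76 and 2.10 CPM in 501Mel and 36.1, 38.8 and 36.4 in Hermes 3A (-3.83 ± 0.09). CDH2, the N-cadherin often gained in melanoma, was lower too, 256-fold. SNAI1, a repressor of CDH1, was 13.0-fold higher.

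Of 15 cytokines tested, 8 were lower (53.3%, background 18.2%) and 5 higher (33.3%, background 23.1%). With shSCR2 10 of 13 were lower and 1 higher. CXCL1, a neutrophil chemokine, had 0.02, 0.04 and 0.03 CPM in 501Mel and 227, 242 and 243 in Hermes 3A (-12.92, adjusted p = 1.6e-29). IL6 and CXCL8, which inflamed and senescent cells secrete, were 44.6- and 5.29-fold lower. TGFB2, an immunosuppressive factor, was 16.8-fold higher, and CCL2, a monocyte chemokine, 20.2-fold higher (1.29 and not called with shSCR2).

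HOX genes, which fix position along the body axis, were mostly lower: 25 of 37 were called lower (background 18.2%) and 5 higher, with a median of -1.81 (21 lower and 7 higher with shSCR2). Members near 0 in 501Mel, such as HOXC11, could pass the filter on low counts through Hermes 3A alone. Such members could only be called lower, so the share is not fully comparable with the background. Fewer were called lower when every sample had to hold at least 10 counts. All 5 higher genes were in the HOXA cluster: HOXA2, HOXA3, HOXA4, HOXA10 and HOXA13, of which HOXA3 had the widest difference, 3.17 on the log2 scale. HOXC10 read 0.45, 0.25 and 0.44 CPM in 501Mel and 41, 36.7 and 37.6 in Hermes 3A (-6.69). HOXC11 had 0 counts in 501Mel, at least 140-fold lower.

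Among metabolic genes the nuclear and mitochondrial parts of oxidative phosphorylation differed in count. The background for each list here is 23.1% higher and 18.2% lower. Of 71 nuclear genes 2 were called lower and none higher (1 and 3 with shSCR2), and UQCRFS1, 1 of the 2 and a subunit of complex III, lost its call without 501Mel replicate 1 (-0.98) or Hermes 3A replicate 3 (-0.96), while 5 of 13 mitochondrially encoded genes were called higher, none with shSCR2; MT-CO2, a cytochrome oxidase subunit, was 3.03-fold higher. SLC2A1, the glucose transporter GLUT1, read 740, 647 and 630 CPM in 501Mel and 50.3, 51.0 and 42.4 in Hermes 3A (3.81 ± 0.07), and glycolysis genes as a list had 5 higher and 4 lower of 24. PHGDH, the first enzyme of serine synthesis, was 10.4-fold higher, whereas PSAT1, the next enzyme, was 9.64-fold lower (33.0 ± 9.88 against 316 ± 12 CPM). Cholesterol synthesis had 2 higher and 2 lower of 24 (1 and 4 with shSCR2), of which MSMO1, a sterol demethylase, lost its call without 501Mel replicate 1 (-0.97) or Hermes 3A replicate 3 (-0.95), and ribosomal protein genes 3 lower and none higher of 74.

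Lysosomal genes had 14 lower (36.8%, background 18.2%) and 1 higher (2.63%, background 23.1%) of 38. With shSCR2 27 were lower, beside a background of 22.9%. CTSK, a collagen-degrading cathepsin, read 5.91, 3.92 and 4.65 CPM in 501Mel and 1490, 1477 and 1523 in Hermes 3A (-8.28 ± 0.09, adjusted p = 1.1e-28). CTSB, the single member called higher (2.25-fold), was called lower with shSCR2 (-1.06). Of the BCL2 family 6 of 17 were lower (35.3%) and 3 higher (17.6%), and 7 and 1 with shSCR2. BCL2A1, an anti-apoptotic target of MITF, was 2.75-fold lower.

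Axon guidance genes, which neural crest cells use to migrate, had 18 higher (43.9%, background 23.1%) and 9 lower (22%, background 18.2%) of 41 with shSCR1. With shSCR2 they had 12 higher and 11 lower, beside a background of 20.7% and 22.9%. EPHA4, an ephrin receptor, was 6.78-fold higher and NTN1, netrin 1, 19.0-fold higher. EFNA1, an ephrin ligand, read 90.2, 77.3 and 70.3 CPM in 501Mel and 2.07, 1.75 and 1.75 in Hermes 3A (5.41 ± 0.10), though it was not called with shSCR2 (0.95). SEMA3E, a repulsive ligand, was 64.9-fold lower.

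Markers of other cell types were checked in both lines. Of 10 fibroblast markers, 9 were tested, with 6 called lower (66.7%, background 18.2%) and 2 higher (22.2%, background 23.1%). Their summed level ran from 6.94 to 9.47 CPM in 501Mel and from 373 to 394 in Hermes 3A. Most of the Hermes 3A sum was FAP, a surface protease, with 304 ± 14.8 CPM, and COL1A2, with 63.9 ± 4.47 CPM. No fibroblast marker was at 0 in every library of either line, and with shSCR2 5 of 8 tested were lower and 0 higher. Keratinocyte markers summed to 28.0 to 29.3 CPM in 501Mel and 31.6 to 33.9 in Hermes 3A, most of it KRT10 (26.7 and 31.6 CPM), with 2 of 5 tested higher and 1 lower and 3 of the list, KRT5 and KRT14 among them, at 0 in every Hermes 3A library. Leukocyte markers summed to at most 3.65 CPM in any library. Endothelial markers summed to 21.7 to 25.5 CPM in 501Mel and 11.4 to 13.4 in Hermes 3A; TIE1 held 18.7 ± 1.49 CPM of the former but read 0.72 and 0.34 CPM in the shSCR2 libraries. The glial list, which shares the neural crest origin of melanocytes, had 8 lower (88.9%) and 1 higher (11.1%) of 9. With shSCR2 it had 4 lower and 1 higher. The part of other cell types in the results was not tested.

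Differences were also summarised by nuclear chromosome, as a description, over genes with at least 100 counts. Medians ran from -0.58 on chromosome 18, -0.49 on 14 and -0.39 on 12 to 0.30 on chromosomes 20 and 22; mitochondrial genes had 0.86. With shSCR2 the medians of chromosomes 18, 14 and 20 were -0.39, -0.30 and 0.37, whereas that of chromosome 12 was -0.04. Genes on 1 chromosome are not independent of each other, and DNA copy number was not measured.

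**Figure D5:**
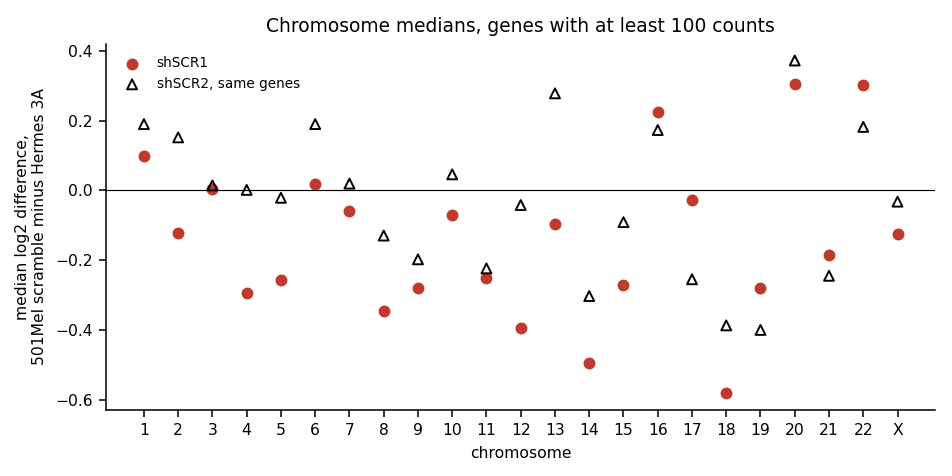
Median log2 difference of genes with at least 100 counts on each chromosome, 501Mel shSCR1 minus Hermes 3A (red circles) and, for the same genes, 501Mel shSCR2 minus Hermes 3A (open triangles); the line marks 0. Chromosome 18 is lowest with shSCR1 and chromosome 19 with shSCR2, chromosome 20 is the highest nuclear chromosome with both, and chromosomes 12 and 13 differ between them.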

How the data were processed

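Total RNA was depleted of ribosomal RNA, and per the labels the libraries passed through duplex-specific nuclease, which lowers the most abundant cDNAs. The submitters' processing notes name CASAVA 1.8, TopHat 1.4.1, Bowtie 0.12.7 and build hg19; the counting program, annotation and use of strand are not given in the sources used here, so overlapping and antisense genes cannot be told apart. For each library the authors deposited unnormalised counts of reads by Ensembl gene, and those of the 3 501Mel shSCR1, 2 shSCR2 and 3 Hermes 3A shSCR libraries were used; the knockdown libraries were not analysed here. Of 42224 genes, 38959 had a symbol and model in GENCODE 29, which supplied names and GRCh38 coordinates.

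Genes were kept by filterByExpr and fitted with edgeR 4.0.16 (TMM, robust glmQLFit, glmQLFTest), with Benjamini-Hochberg adjustment over all 18731. The procedure was tested on simulated data with few changes, split evenly up and down, in genes with a mean of at least 100 counts. Of 198 changed genes at log2 2 among 16898, 198 were called and 0 others. That setting does not cover weakly expressed genes or the many unequal differences of these data. Replicates differed by more than sampling noise. A fold against a group at 0 counts is a bound set at 3 counts over the group; intervals for single counts are not given.

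The 37 gene lists and the members named were chosen with earlier results of these data known. Named genes are lead genes of the lineage and the 8 protein-coding genes highest and lowest, with Y-linked genes left out. The 2 highest and 2 lowest called members of each list were named too. Both choices asked for at least 100 mean counts and no overlap. Most other named genes are marked. Of 955 list symbols 942 matched. Promoters came from RefSeq (GRCh38.p14), matched by symbol. Alternatives were DESeq2 1.42.0, other scalings and filters, glmTreat, a replicate block, shSCR2 in place of or pooled with shSCR1, removal of abundant genes and leaving out each library. R 4.3.3, Python 3.11.15 and matplotlib 3.10.9 were used. A few list members are counted in their lists and are not reported here by name.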

Additional observations from a re-analysis of the deposited data

How the results depend on the processing

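The counts of 4333 higher and 3414 lower genes stayed within 1.5 times under DESeq2, library sizes, upper-quartile factors, no filter on low counts (with 5957 and 4067 called), glmTreat, pooled scrambles, shSCR2 and removal of mitochondrial and the 20 most abundant genes, and ran from 4291 to 4698 and from 3442 to 3566 when 1 library was left out. With at least 10 counts in every sample they were 2284 and 2122, a filter that removes genes at 0 in 1 line, and under it the cancer-testis antigens called higher fell to 1 and the HOX genes called lower to 14. With no fold threshold they were 7746 and 7537, and the S-phase, mitosis and lysosomal counts were 32, 36 and 31. With shSCR2 these were 30, 37 and 27, and with pooled scrambles the S-phase and mitosis counts were 18 and 26. Library sizes and upper-quartile factors each gave 17 mitosis genes. Of the 4333 genes called higher with shSCR1, only 3428 were tested with shSCR2, and 1997 were called higher with both. Of the 3414 called lower, 3406 were tested and 2565 were called lower with both. In opposite directions 159 were called. The causes were not tested, and depth limits genes under 100 counts.

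Of 136 named genes that were called, none changed sign under an alternative that tested them except with shSCR2, where 8 did: PRKCB (-0.34), CDKN1C (-2.81), HLA-DPA1 (-0.0322), COL13A1 (-1.16), SLC2A3 (-0.95), CTSB (-1.06), BMF (-0.79) and ERBB3 (0.21), and 16 others lost the call. Leaving out 1 library lost 2 named calls, MSMO1 and UQCRFS1, both near the fold threshold. Uncalled genes that changed sign with shSCR2 were MITF (0.0682), LEF1 (0.0596), SMARCA4 (0.42; pooled 0.0153), AXL (-0.21; pooled -0.0581) and MKI67 (1.31; pooled 0.69). AXL also turned without 501Mel replicate 1 (-0.25) and without Hermes 3A replicate 2 (-0.14), in a range of -0.25 to 0.197 without single libraries. MKI67, at -0.01, turned with the stricter filter (0.0744), library sizes (0.25), upper-quartile factors (0.17), removal of abundant genes (0.00516) and without single libraries (-0.0602 to 0.0437 over all 6).

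Replicate numbers did not pair the libraries: the correlations of deviations of same-numbered libraries ran from -0.000978 to 0.0307. Adding the replicate block to the fit gave 4298 genes higher and 3401 lower, and 1 of the 136 named calls was lost (MSMO1).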

Other observations

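A stretch of the X chromosome was lower in 501Mel than any other window of 41 neighbouring protein-coding genes with at least 100 counts. From CHM to TBC1D8B, centred on ARMCX2, the median log2 difference was -2.06, with 27 of 41 genes called lower and 2 higher, and -1.79 with shSCR2. It holds the related ARMCX, BEX and TCEAL genes, a cluster named after its values were seen. Of 17 tested members 15 were called lower, 1 higher and 1 was not called, with a median of -5.69. ARMCX1 was at 0.09 CPM in 501Mel and 64.0 in Hermes 3A, and BEX1 at 0.02 and 22.2 CPM, whereas BEX3 was lower by less (82.7 against 211 CPM) and BEX5 was the member called higher, at 0.34 against 0.02 CPM. With shSCR2 13 of 16 tested members were called lower and 0 higher. Another low window lay on chromosome 19, from MYH14 to ZNF525, with a median of -1.33 and 25 of 41 genes lower (-0.80 with shSCR2). The highest window was on chromosome 5, from AHRR to BASP1, with a median of 0.81 (0.73 with shSCR2). The members of a family resemble each other in sequence, so reads may be shared between them.

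Gene types differed in their balance. Of 910 long intergenic RNAs 53.5% were called higher in 501Mel and 13.6% lower, and of 1178 antisense genes 48.1% and 10.0%, beside 17.0% and 20.2% of protein-coding genes. The noncoding types were weakly expressed, with median counts of 32.8 and 33.0 in 501Mel and 13.7 and 17.0 in Hermes 3A. At such levels a gene can pass the filter on low counts through 501Mel alone, which raises the share called higher. How far it did so was not tested. Protein-coding genes took 95.9 to 96.1% of counts in 501Mel and 97.9 to 98.1% in Hermes 3A. Reads outside protein-coding genes thus made a larger part of the 501Mel libraries, and its part in these calls was not tested.

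Imprinted genes had 5 higher (38.5%) and 2 lower (15.4%) of 13. Genes of the ATF4 and amino acid response had 8 higher (40%) and 4 lower (20%) of 20. The background was 23.1% higher and 18.2% lower. NUPR1, a stress-induced nuclear protein, was 28.1-fold higher in 501Mel, and PEG10, an imprinted retrotransposon-derived gene, 2.93-fold higher. With shSCR2 the counts were 3 higher and 7 lower of 12 imprinted genes, and 5 higher and 5 lower of 20 in the ATF4 list.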
